A study of Homo sapiens with 23 samples.

Results

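Bone morphogenetic proteins (BMPs) bind pairs of serine/threonine kinase receptors, which phosphorylate SMAD1, SMAD5 and SMAD9, and these enter the nucleus with SMAD4 and switch on a small set of direct target genes. The genes described here are 9 such targets that were chosen by name: ID1, ID2, ID3, ID4, SMAD6, SMAD7, SMAD9, BAMBI and ATOH8, 9 of the 60564 genes listed in each library. The 4 ID genes encode helix-loop-helix proteins that lack a DNA-binding region and hold E proteins in inactive pairs. SMAD6, SMAD7 and BAMBI damp the pathway, SMAD6 and SMAD7 as inhibitory SMADs inside the cell and BAMBI as a receptor-like protein without kinase activity. SMAD9 (also called SMAD8) is a transducer whose own transcription follows BMP signalling, and ATOH8 is a helix-loop-helix transcription factor. In the liver the same BMP-SMAD route controls HAMP, the gene of the iron hormone hepcidin, and in the gut a BMP gradient runs along the crypt.

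The libraries came from the iGLC platform, a microfluidic gut-liver chip with separate chambers for Caco-2 cells, a human colorectal adenocarcinoma line used as a gut epithelium model, and HepG2 cells, a human hepatocellular carcinoma line used as a hepatocyte model. In mono-culture a chip held a single line, and in co-culture the Caco-2 and HepG2 chambers were joined through circulating medium. Each line was grown in both cultures with or without 1 mM free fatty acids (FFAs, a palmitic and oleic acid mixture) for 1 day (dissolved in DMSO and diluted in medium), which gave 8 groups with 3 libraries each, except the Caco-2 co-culture without FFAs, which had 2. The cells were maintained with fetal bovine serum, and the labels name low serum during treatment where the methods name serum-free medium with albumin. Levels are TPM, a share of the library's transcripts corrected for transcript length, so levels of different genes may be set side by side. The genes were picked because their levels were known to be higher in co-cultured HepG2 cells, so for that difference the values are a description and no p-value is given. The methods describe repeated experiments and biological replicates without tying single libraries to a chip or experiment, so p-values measure only the spread between these libraries.

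Read depth cannot be recovered from TPM, so the precision of each level is known only from the spread between libraries. Between 19259 and 23689 genes were above 0 TPM per library, and the replicate 3 libraries listed the most genes in 7 of 7 groups with 3 libraries. The lines matched their labels in sums of marker genes: over 10 hepatocyte genes, HepG2 mono-culture controls held 63716 to 71179 TPM and Caco-2 mono-culture controls 3672 to 5668 TPM. Summed over 10 intestinal epithelial genes, Caco-2 libraries held 959 to 1391 TPM against 274 to 474 TPM in HepG2, although the intestinal factor CDX1 was at or near 0 in Caco-2 as well. Single genes went the other way in mono-culture controls. VTN, of the hepatocyte genes, averaged 1469 TPM in Caco-2 and 341 TPM in HepG2, and ANPEP, of the intestinal genes, 4.91 and 206 TPM. Of the 9 genes, 6 passed the low-level filter of a group mean of at least 1 TPM in Caco-2 and 7 passed it in HepG2. ID4 and ATOH8 stayed under 1 TPM in all 23 libraries, and SMAD9 passed only in HepG2.

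Proximal promoters of ID1, ID3 and SMAD7 are printed because the culture comparisons turn on these genes, and to show which short SMAD motifs they hold. Each sequence runs 5′ to 3′ over the 250 bases before a RefSeq transcript start (GRCh38.p14), with capitals marking GGCGCC or GGAGCC (the core of BMP-responsive SMAD elements and a variant of it) and GTCTG (a SMAD-binding box), each searched on both strands. The ID1 window is chr20:31605039-31605288 on the plus strand, the ID3 window chr1:23559502-23559751 on the minus strand, and the SMAD7 window, taken at the most upstream of its 3 RefSeq starts, chr18:48950966-48951215 on the minus strand.
ID1: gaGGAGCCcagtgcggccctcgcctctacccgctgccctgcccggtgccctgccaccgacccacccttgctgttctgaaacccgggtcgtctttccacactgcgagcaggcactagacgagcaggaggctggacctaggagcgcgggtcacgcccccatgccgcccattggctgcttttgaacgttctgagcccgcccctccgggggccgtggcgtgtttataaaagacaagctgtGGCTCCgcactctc
ID3: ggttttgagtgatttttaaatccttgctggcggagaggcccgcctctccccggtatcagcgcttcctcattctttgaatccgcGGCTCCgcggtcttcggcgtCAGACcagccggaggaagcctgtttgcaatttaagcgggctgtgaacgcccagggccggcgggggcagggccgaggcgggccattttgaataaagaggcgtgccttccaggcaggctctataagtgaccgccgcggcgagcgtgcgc
SMAD7: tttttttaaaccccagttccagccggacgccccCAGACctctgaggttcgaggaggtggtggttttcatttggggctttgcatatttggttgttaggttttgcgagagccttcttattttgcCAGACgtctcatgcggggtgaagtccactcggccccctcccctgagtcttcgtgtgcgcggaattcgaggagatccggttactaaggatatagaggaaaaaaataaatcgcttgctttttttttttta

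GGCGCC was found in the windows of 1 of 9 genes (BAMBI) and in 16.4% of all 35116 promoters of that length. GGAGCC or its reverse complement was found for 8 of 9 genes (8 of 11 windows), against 30.6% of all promoters. GTCTG or its reverse complement was found for 4 of 9 genes (BAMBI, ID3, ID4 and SMAD7, in 5 of 11 windows), against 38.0%. The members' windows were 48.0 to 81.2% GC, against a median of 58.0% over all promoters, and SMAD7 had 3 windows, so these shares are descriptions of the letters only. In ID1, GGAGCC began at -248 and GGCTCC at -14 from the start, and the BMP-responsive elements known for ID1 lie farther upstream than this window. ID3 held GGCTCC at -167 and CAGAC at -147. The printed SMAD7 window held CAGAC at -217 and -128, and the GGAGCC counted for SMAD7 lay in another of its windows.

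The comparison of co-cultured with mono-cultured HepG2 cells asks whether sharing medium with Caco-2 cells was accompanied by other target gene levels in the liver line. ID1, ID3, ID2 and SMAD7 were higher in all 6 co-culture libraries than in any of the 6 mono-culture libraries, by 1.91-fold (ID2) to 3.71-fold (ID1) in the ratio of means. BAMBI was 1.53-fold higher with overlapping groups, and SMAD6 and SMAD9 were within 1.17-fold. ID4 and ATOH8 were barely detected. Among all 14255 genes tested, 0.589% were higher in every co-culture library, and since these genes were chosen on this contrast, nothing is read from that difference in share.

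ID1 (chr20:31605283-31606515, plus strand), the best known BMP-induced gene, was at 64.9, 137 and 58.2 TPM in the 3 HepG2 mono-culture controls and at 229.8, 453 and 250.4 TPM in the co-culture controls. With FFAs it was at 78.6, 157 and 53.0 TPM in mono-culture and at 349.6, 586 and 166 TPM in co-culture. Every co-culture library was above every mono-culture library, and replicate 2 was the highest of its group each time. On the log2(TPM + 1) scale the co-culture difference was 1.87 without FFAs, 1.89 with FFAs and 1.88 (SE 0.36) averaged over both.

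ID3 (chr1:23557926-23559501, minus strand) followed the same libraries: 27.9, 40.9 and 29.4 TPM in mono-culture controls against 77.5, 132 and 96.3 TPM in co-culture controls. With FFAs the mono-culture values were 42.1, 56.6 and 32.4 TPM and the co-culture values 131, 178 and 65.3 TPM. The groups did not overlap, and replicate 2 was again the highest in all 4 HepG2 groups. The averaged log2 difference was 1.51 (SE 0.24), and the 2.97-fold ratio of means was next in size to that of ID1.

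ID2 (chr2:8678845-8684461, plus strand) was tighter between replicates than ID1 and ID3, with 68.2, 67.1 and 60.3 TPM in mono-culture controls and 116, 135 and 179.6 TPM in co-culture controls. The FFA libraries held 71.1, 83.3 and 87.4 TPM in mono-culture and 123, 153 and 129 TPM in co-culture. No mono-culture library reached the lowest co-culture library, and replicate 2 was the highest only in the co-culture with FFAs. The averaged log2 difference was 0.92 (SE 0.11). ID2 shares 145 exon bases with the antisense gene ID2-AS1, and whether reads were counted by strand was not given in the sources used here, so reads of the antisense gene cannot be told apart.

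SMAD7 (chr18:48919853-48950965, minus strand), is the inhibitory SMAD that recruits ubiquitin ligases to the receptors. Its mono-culture controls were at 12.4, 9.59 and 13.7 TPM and its co-culture controls at 24.9, 22.9 and 25.0 TPM. With FFAs the mono-culture libraries held 10.1, 13.6 and 11.03 TPM and the co-culture libraries 17.7, 21.3 and 23.2 TPM. The lowest co-culture library lay above the highest mono-culture library. The averaged log2 difference was 0.89 (SE 0.12), a 1.92-fold ratio of means.

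**Figure D1:**
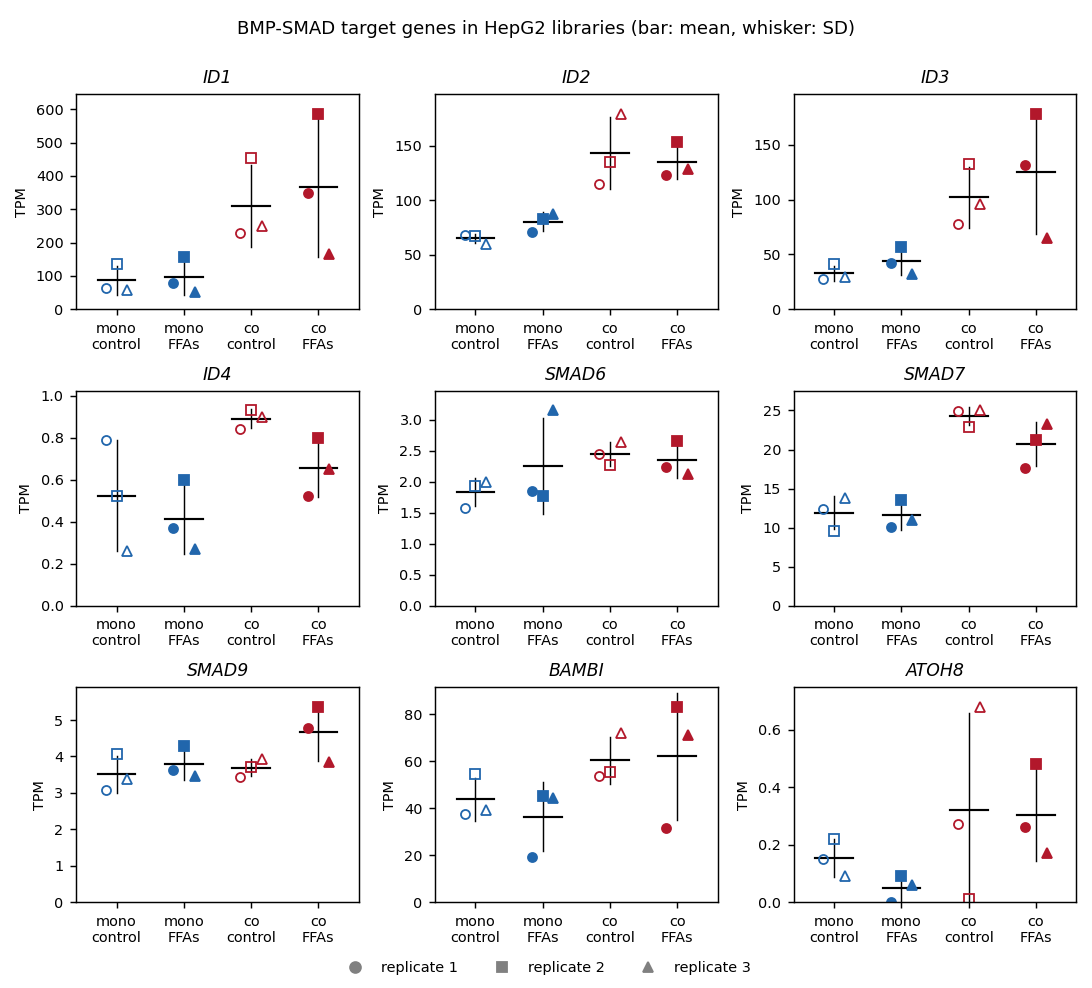
TPM of each of the 9 genes in the 12 HepG2 libraries by group, with open points for controls, filled points for FFAs, blue for mono-culture, red for co-culture and a marker shape per replicate number; bars are group means and whiskers SDs. For ID1, ID2, ID3 and SMAD7 every red point lies above every blue point, and replicate 2 is the highest ID1 and ID3 point of each group.

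BAMBI (chr10:28677510-28682932, plus strand) was at 37.7, 54.3 and 39.3 TPM in mono-culture controls and at 53.6, 55.3 and 71.9 TPM in co-culture controls. With FFAs its mono-culture values were 19.3, 45.1 and 44.3 TPM and its co-culture values 31.6, 83.2 and 71.2 TPM. The cultures overlapped, since the lowest co-culture library (replicate 1 with FFAs) was below most mono-culture libraries. The averaged log2 difference was 0.60 (SE 0.26).

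SMAD6 (chr15:66702236-66782849, plus strand), the other inhibitory SMAD, was low in HepG2, with 1.57, 1.93 and 2.00 TPM in mono-culture controls and 2.44, 2.26 and 2.64 TPM in co-culture controls. With FFAs it held 1.85, 1.77 and 3.15 TPM in mono-culture and 2.24, 2.66 and 2.12 TPM in co-culture. Without FFAs the groups did not overlap, whereas with FFAs the highest library was a mono-culture one. Its averaged log2 difference was 0.17 (SE 0.14).

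SMAD9 (chr13:36844831-36920887, minus strand) was at 3.07, 4.07 and 3.39 TPM in mono-culture controls and at 3.45, 3.7 and 3.94 TPM in co-culture controls. In FFA libraries it was at 3.63, 4.29 and 3.47 TPM in mono-culture and at 4.77, 5.37 and 3.84 TPM in co-culture. Both sets overlapped, and the averaged log2 difference was 0.15 (SE 0.12). ID4 (chr6:19837370-19842197, plus strand) ranged from 0.26 to 0.93 TPM over the HepG2 libraries, and ATOH8 (chr2:85751344-85791383, plus strand) from 0 to 0.68 TPM, so neither was tested. ID4 was nonetheless the higher one in co-culture in 6 of 6 pairs of same-numbered libraries, a count given without the share of all genes. It was at 0.84, 0.93 and 0.9 TPM in co-culture controls and at 0.79, 0.52 and 0.26 TPM in mono-culture controls.

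Over the 7 genes tested, the median co-culture difference in HepG2 was 0.89 log2 units averaged over treatments, 0.98 without FFAs and 0.74 with FFAs, beside an all-gene median of -0.02 in the averaged contrast. All 7 differences were positive, as were those of 45.6% of all genes. Across all 14255 genes limma with Benjamini-Hochberg adjustment called 8 in the averaged contrast (0.0561%), or 492 (3.45%) with the replicate number as a block, and 1789 had an unadjusted p under 0.05. Without FFAs 5 of 7 genes (ID1, ID2, ID3, SMAD7 and SMAD6) had no overlap between cultures, beside 7.25% of all genes higher in every co-culture library. With FFAs it was 4 of 7, beside 4.17%. The genes were chosen on this contrast, so nothing is read from these signs and shares. In bulk libraries a larger number of expressing cells and more RNA per cell cannot be told apart. Of the 10 intestinal genes 2 to 4 were at or above 1 TPM in each HepG2 library, and CDH17, an intestinal cadherin, was at 2.75, 0.58 and 1.79 TPM in the co-culture with FFAs and at 0.05 to 0.76 TPM in the other HepG2 groups. The summed intestinal genes were at 274 to 366 TPM in co-cultured and 369 to 474 TPM in mono-cultured HepG2. VIL1 and ANPEP, which averaged 225 and 206 TPM in HepG2 mono-culture controls, made up most of that sum. The sum therefore cannot show the amount of Caco-2 RNA. The summed hepatocyte genes were at 48442 to 65154 TPM in co-cultured and 60594 to 72985 TPM in mono-cultured HepG2. The part of these values in the differences was not tested.

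Libraries of the same replicate number were also set side by side across cultures. The co-culture library was higher in 6 of 6 such pairs for ID1, with ratios of 3.13 to 4.44. ID3 was higher in 6 of 6 pairs with ratios of 2.02 to 3.28. Ratios of ID2 ran from 1.48 to 2.98 and those of SMAD7 from 1.57 to 2.39, again with 6 of 6 pairs higher. BAMBI was higher in 6 of 6 pairs too, with ratios from 1.02 to 1.84, although its pooled cultures overlapped. SMAD6 was higher in 5 of 6 pairs (0.673 to 1.55) and SMAD9 in 5 of 6 (0.909 to 1.31). The genes were chosen on this contrast, and the share of all genes higher in every pair was not counted. These counts are therefore descriptions, and for ID1, ID2, ID3 and SMAD7 they follow from the lack of overlap between cultures. The sources do not say that a shared number marks a shared chip or day.

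The genes did not all vary together within HepG2. Over the 12 HepG2 libraries, which share 4 group means, the log2 level of ID3 had r = 0.98 with that of ID1, ID2 had r = 0.81, SMAD7 r = 0.73, SMAD9 r = 0.72, BAMBI r = 0.53 and SMAD6 r = 0.30. After the group means were taken out, r with ID1 was 0.96 for ID3 and 0.88 for SMAD9 but 0.20 for ID2 and -0.26 for SMAD7. ID1, ID3 and SMAD9 therefore shared their ups and downs between replicates of a group, whereas ID2 and SMAD7 shared with ID1 mainly the step between cultures. The 21 gene pairs had a median r of 0.60 over libraries and 0.20 within groups.

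By the same measure, ID3 ranked the nearest to ID1 among 14254 other genes in HepG2, and ID2 ranked 56, SMAD7 246, SMAD9 276, BAMBI 1229 and SMAD6 3443. The nearest genes outside the list were DGKK, a diacylglycerol kinase (r = 0.93), LRP8, a lipoprotein and reelin receptor (r = 0.89), ATAD3B (r = 0.89), AL589669.1 (r = 0.89) and C8orf76 (r = 0.88), over the same 12 libraries. DGKK averaged 5.30 TPM in mono-culture controls and 8.72 TPM in co-culture controls, and LRP8 21.6 and 32.8 TPM. These genes were found by searching all genes for likeness to ID1, so high r values are what the search returns. The pooled r also carries the step between cultures on which the 9 genes were chosen. The ranks of ID2 and SMAD7 therefore restate that choice. That of ID3 carries the step too, although r between ID3 and ID1 within groups was 0.96.

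In Caco-2 the same comparison asks whether sharing medium with HepG2 cells was accompanied by other levels in the gut line. SMAD7 and ID3 had the largest differences, 1.59-fold and 1.81-fold in the ratio of means, and no gene passed the test. Over all 5 co-culture and 6 mono-culture libraries, none of the 6 genes tested was without overlap, beside 1.38% of all 15081 genes in either direction. In the averaged contrast limma called 0 of 6 genes and 0 of 15081 overall (0%), while 2 of the 6 and 1578 of all had an unadjusted p under 0.05. The median difference of the 6 was 0.28 log2 units, beside 0.03 over all genes.

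SMAD7 was at 6.82, 9.07 and 9.63 TPM in Caco-2 mono-culture controls and at 15.1 and 16.2 TPM in the 2 co-culture controls. Under FFAs SMAD7 was at 9.17, 10.04 and 8.4 TPM in mono-culture and at 9.44, 14.7 and 14.9 TPM in co-culture. Without FFAs the groups were apart, and with FFAs replicate 1 of the co-culture fell among the mono-culture libraries. The log2 difference was 0.82 without FFAs (SE 0.20, limma adjusted p = 0.867), 0.43 with FFAs (SE 0.18, adjusted p = 0.814) and 0.63 averaged (SE 0.14, adjusted p = 0.273). SMAD7 was the higher one in 5 of 5 same-numbered pairs, with ratios of 1.03 to 2.21. The share of all genes higher in every such pair was not counted.

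ID3 was much lower in Caco-2 than in HepG2, with 4.14, 4.44 and 11.4 TPM in mono-culture controls and 12.6 and 13.7 TPM in co-culture controls. With FFAs it was at 13.8, 4.21 and 10.3 TPM in mono-culture and 13.8, 22.8 and 9.98 TPM in co-culture. The mono-culture libraries spanned a more than 3-fold range, and those at 11.4, 13.8 and 10.3 TPM lay above the lowest co-culture library (9.98 TPM). The averaged difference was 0.86 (SE 0.32, limma adjusted p = 0.400). Its same-numbered ratios ran from 0.966 to 5.41, with 4 of 5 above 1.

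ID1, the gene with the largest co-culture difference in HepG2, was at 172, 166 and 148 TPM in Caco-2 mono-culture controls and at 247 and 185 TPM in co-culture controls. With FFAs it was at 462, 202 and 172 TPM in mono-culture and 217, 471 and 182 TPM in co-culture. A single FFA library stood high in each culture, and the averaged difference was 0.24 (SE 0.28). ID2 was at 199, 202 and 202 TPM in mono-culture controls and at 297 and 291 TPM in co-culture controls. With FFAs ID2 was at 356, 212 and 276 TPM in mono-culture and at 201, 441 and 281 TPM in co-culture, so the control groups were apart and the FFA groups overlapped. The averaged difference of ID2 was 0.32 (SE 0.18).

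BAMBI averaged 94.9 ± 8.82 TPM (SD, n = 3) in Caco-2 mono-culture controls and 108 ± 24.5 TPM (n = 2) in co-culture controls, with an averaged difference of 0.04 (SE 0.13). SMAD6 averaged 4.88 ± 0.953 TPM (SD, n = 3) and 5.06 ± 0.771 TPM (n = 2) in the same groups, with an averaged difference of 0.07 (SE 0.15). Both genes overlapped between cultures with and without FFAs. Without FFAs 4 of 6 genes (ID1, ID2, ID3 and SMAD7) were higher in both co-culture libraries than in any of the 3 mono-culture libraries, beside 15.1% of all genes, and limma called 0 of 6 there and 3 genes overall (0.0199%). With FFAs all 6 genes overlapped, beside 9.32% of all genes without overlap, and 0 genes were called (0%).

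**Figure D2:**
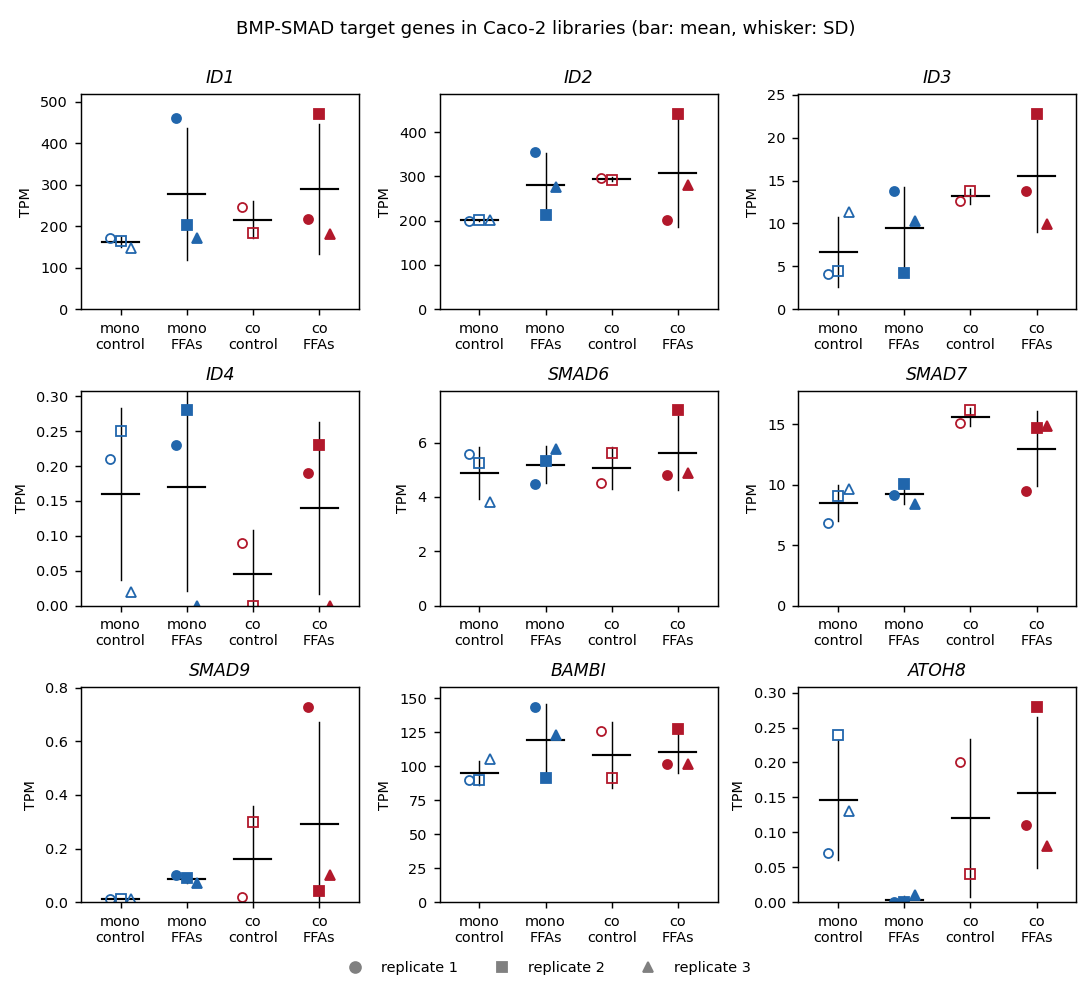
TPM of each of the 9 genes in the 11 Caco-2 libraries by group, with the same colours and shapes as for HepG2; bars are group means and whiskers SDs. ID1, ID2, ID3 and BAMBI are high together in replicate 1 of the mono-culture with FFAs and in replicate 2 of the co-culture with FFAs, and SMAD9, ID4 and ATOH8 stay under 1 TPM.

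Liver transcripts moved with some of these co-culture libraries. HAMP was at 5.18 and 0 TPM in the 2 Caco-2 co-culture controls and at 4.20, 0.59 and 0 TPM with FFAs, against 0 to 0.03 TPM in mono-culture. TF (transferrin) was at 42.8 and 4.17 TPM and at 133, 10.2 and 6.06 TPM in the same libraries, and at 5.11 to 9.45 TPM in mono-culture. Summed over 10 hepatocyte genes, all of them at or above 1 TPM in every Caco-2 library, the co-culture libraries held 4562 to 6043 TPM and the mono-culture libraries 3547 to 5668 TPM. SMAD9, at 0.01 to 0.1 TPM in Caco-2 mono-culture, was at 0.02 and 0.3 TPM in the co-culture controls and at 0.73, 0.04 and 0.1 TPM with FFAs. The library at 0.73 TPM held the most TF (replicate 1 with FFAs). Of the controls, the one with HAMP at 5.18 TPM held 0.02 TPM of SMAD9 and the one without HAMP 0.3 TPM. Leaving out the 2 libraries with HAMP above 1 TPM was an alternative chosen after seeing the data. It gave averaged differences of 0.75 for SMAD7 and 0.91 for ID3, against 0.63 and 0.86 with all libraries. Only 1 co-culture control remained, and a kept library still held HAMP at 0.59 TPM, so this omission cannot show the part of liver RNA. The part of liver RNA in these differences was not tested.

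**Figure D3:**
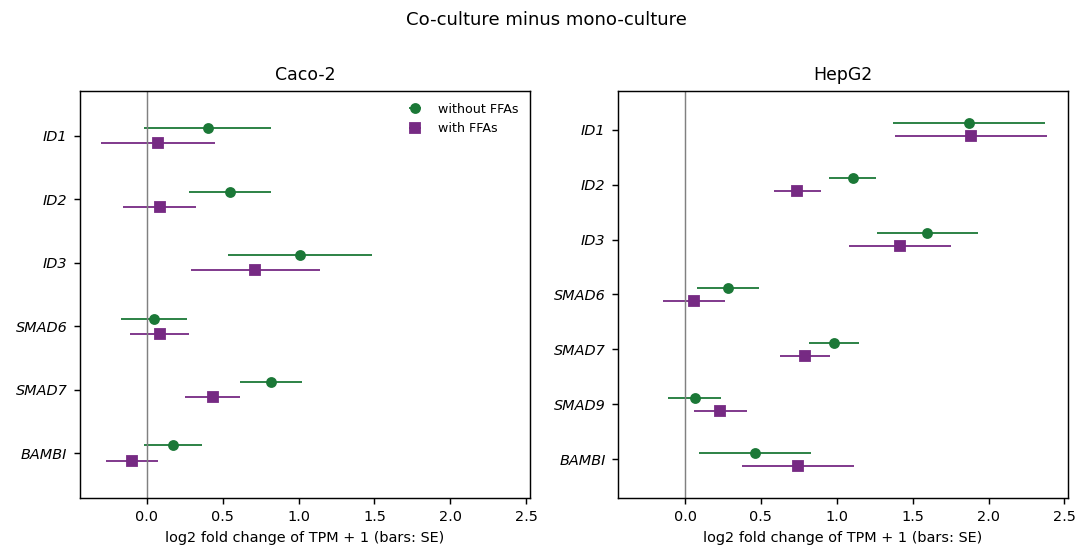
Co-culture minus mono-culture difference in log2(TPM + 1) for each gene tested, with and without FFAs, in HepG2 and Caco-2; whiskers are SEs from limma. In HepG2 ID1 and ID3 lie above 1.4 in both treatments and SMAD6 and SMAD9 between 0.06 and 0.28, and in Caco-2 SMAD7 and ID3 are the highest without FFAs.

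Whether the co-culture difference itself differed between HepG2 and Caco-2 was not tested, because the choice of genes rests on the HepG2 values. Side by side, the averaged differences in HepG2 and Caco-2 were 1.88 and 0.24 for ID1, 1.51 and 0.86 for ID3, 0.92 and 0.32 for ID2, and 0.89 and 0.63 for SMAD7. SMAD7 was thus the gene whose values in the lines were nearest among these 4. With group means taken out, r between ID1 and ID2 was 0.76 over the 11 Caco-2 libraries and 0.20 over the 12 HepG2 libraries, and r between ID1 and ID3 was 0.50 and 0.96, a difference that was not tested. The genes nearest to ID1 in Caco-2 outside the list were AC215524.1 and BX322534.1, which carried identical values with group means of 0 in both control groups and 0.98 TPM in co-culture with FFAs (r = 0.94), FXYD5 (r = 0.93), HIST1H3H (r = 0.91) and TXNP4 (r = 0.91), and ID2 ranked 82 of 15080.

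The next comparison asks whether FFAs, the overload that models fatty liver, changed the target genes within a culture. None passed the test in either line or culture. In HepG2 limma called 0 of 7 genes and 0 of 14255 overall (0%) in mono-culture, in co-culture, averaged over both and for the interaction, with 319, 263, 497 and 166 of all genes at an unadjusted p under 0.05 and 0 of the 7. In Caco-2 it called 0 of 6 each time, beside 0 of 15081 genes in mono-culture (0%), 3 in co-culture (0.0199%), 0 averaged (0%) and 0 for the interaction (0%), with 393, 427, 601 and 292 of all genes and 0 of the 6 at an unadjusted p under 0.05. The smallest adjusted p of any of the genes was 0.99.

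In HepG2 the ID1 values given above left a wide interval, since the averaged FFA difference was 0.12 log2 units with a 95% interval of -0.66 to 0.90. ID2 was the single gene of 7 without overlap in HepG2 mono-culture, at 65.2 ± 4.28 TPM without and 80.6 ± 8.47 TPM with FFAs (SD, n = 3), a log2 difference of 0.30 (SE 0.16), beside 3.1% of all genes higher in every FFA library. In HepG2 co-culture it was at 143 ± 32.8 and 135 ± 15.9 TPM (SD, n = 3), a difference of -0.07, and 0 of 7 genes were without overlap, beside 5.42% of all genes. ID3 differed by 0.39 (SE 0.33) in mono-culture and 0.21 in co-culture, and BAMBI by -0.34 (SE 0.37) and -0.06. The medians over the 7 genes were 0.11 in mono-culture and -0.05 in co-culture, beside 0.00 and 0.01 over all genes.

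In Caco-2 mono-culture the FFA differences were 0.64 for ID1 (SE 0.38), 0.45 for ID2 (SE 0.24), 0.45 for ID3 (SE 0.43) and 0.31 for BAMBI (SE 0.17), and replicate 1 with FFAs was the highest library for each of them, with 462 TPM of ID1 against 202 and 172 TPM in the others. Without that library the ID1 difference was 0.20, and over all single omissions it ran from 0.20 to 0.91. ID2 was without overlap there, beside 5.08% of all genes higher in every FFA library. In Caco-2 co-culture SMAD7 was lower in all 3 FFA libraries than in both controls, a difference of -0.27 (SE 0.20), beside 8.91% of all genes lower in every FFA library. The averaged ID1 difference was 0.47 with a 95% interval of -0.14 to 1.09, which spans a small decrease and a 2-fold increase alike. The medians over the 6 genes were 0.38 in mono-culture and 0.08 in co-culture, beside 0.03 and 0.00 over all genes. The change of the FFA difference between cultures ranged from -0.46 (ID2) to 0.04 (SMAD6) in Caco-2 and from -0.36 (ID2) to 0.28 (BAMBI) in HepG2, and none passed the test.

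**Figure D4:**
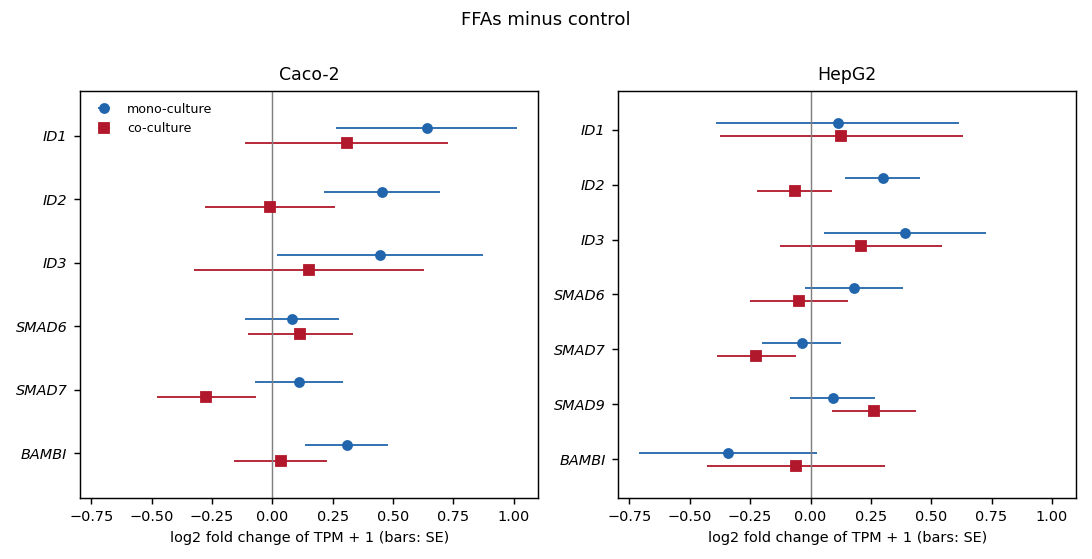
FFAs minus control difference in log2(TPM + 1) for each gene tested, in mono-culture and co-culture of HepG2 and Caco-2; whiskers are SEs from limma. The largest point is ID1 in Caco-2 mono-culture at 0.64 with an SE of 0.38 (0.20 without replicate 1 with FFAs), and the others lie between -0.34 and 0.45.

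The comparison of the lines in mono-culture without FFAs asks how the target genes differ between gut and liver cells before any contact. Of 7 genes tested, limma called 6: ID3, SMAD7 and SMAD9 were higher in HepG2, and ID2, SMAD6 and BAMBI were higher in Caco-2. This is the background of the contrast, since 62.4% of all 16495 genes were called, so the count is not a result about these genes. ID3 was higher in HepG2 by 2.24 log2 units (SE 0.41, adjusted p = 0.000105), from 6.65 ± 4.09 to 32.7 ± 7.14 TPM (SD, n = 3). ID2 was lower in HepG2 by -1.61 (SE 0.22, adjusted p = 2.58e-06), at 65.2 ± 4.28 TPM against 201 ± 1.86 TPM. ID1 pointed the same way as ID2, 86.7 ± 43.6 against 162 ± 12.6 TPM, and did not pass the test (-0.9998, SE 0.49, adjusted p = 0.0828).

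Among the inhibitors, BAMBI differed by -1.11 (SE 0.31, adjusted p = 0.00453), SMAD6 by -1.04 (SE 0.18, adjusted p = 6.06e-05) and SMAD7 by 0.44 (SE 0.17, adjusted p = 0.0342). The SMAD7 call was lost without Caco-2 control replicate 1 (0.31, adjusted p = 0.171), HepG2 control replicate 3 (0.34, adjusted p = 0.139) or HepG2 control replicate 1 (0.41, adjusted p = 0.089). Without HepG2 control replicate 2 the ID1 difference was -1.38 and passed the test (adjusted p = 0.0307). SMAD9 differed by 2.15 (SE 0.18, adjusted p = 3.28e-09), but it was tested only because its HepG2 level passed the filter, so it had to differ. The all-gene median of this contrast was -0.20, and relative to it ID1 was at -0.80, ID2 at -1.41, ID3 at 2.44, SMAD6 at -0.84, SMAD7 at 0.64, SMAD9 at 2.35 and BAMBI at -0.91, with no change of sign. Over all libraries of both cultures, ID3 and SMAD9 were higher in every HepG2 library (14.1% of all genes), and ID2, SMAD6 and BAMBI were lower in every HepG2 library (28.6%).

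**Figure D5:**
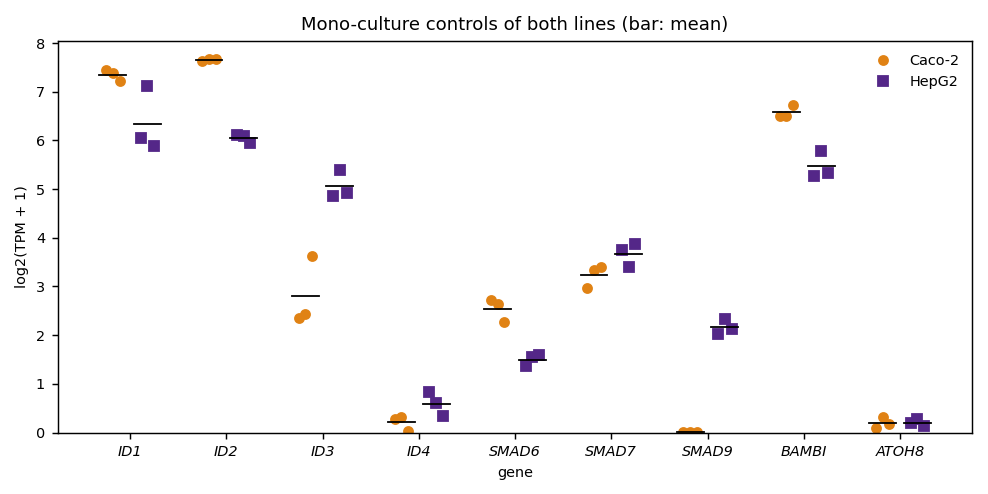
log2(TPM + 1) of the 9 genes in the 3 mono-culture control libraries of each line; points are libraries and bars means. ID2, BAMBI and SMAD6 lie higher in Caco-2, ID3 and SMAD9 higher in HepG2, and ID4 and ATOH8 lie under 1 in both.

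The order of group means differed by gene. ID1 was highest in co-cultured HepG2 (367 ± 211 TPM with and 311 ± 123 TPM without FFAs, SD, n = 3) and lowest in mono-cultured HepG2, with all Caco-2 groups between. Among its neighbours in that order the only pair without overlap was the Caco-2 co-culture control above the Caco-2 mono-culture control. SMAD7 was highest in the 2 HepG2 co-culture groups, which overlapped each other and lay clear of the Caco-2 co-culture controls, next in the order. ID3 fell into 3 steps, with the HepG2 co-cultures on top, the HepG2 mono-cultures next and all Caco-2 groups last, and no overlap between steps. ID2, SMAD6 and BAMBI had all Caco-2 groups above all HepG2 groups, and of these 3 genes only ID2 also had a clear step between co-cultured and mono-cultured HepG2. In mono-culture controls ID1 and ID2 were the most abundant of the 9 in both lines, and BAMBI was next.

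Genes of the wider pathway gave the setting for these levels. A list of 87 further ligand, receptor, SMAD, antagonist, regulator, target and E protein genes, drawn up with earlier results known, had 62 tested genes in Caco-2 and 51 in HepG2. Within a line limma called 0 of them in every culture and FFA contrast, except HAMP in HepG2 co-culture averaged over treatments (4.99 log2 units, SE 0.53, adjusted p = 0.0095), which was 1 of 8 genes called among all 14255 (0.0561%). With the replicate block HAMP was still the only listed gene called in that contrast (adjusted p = 0.00323), and it was also called without FFAs (adjusted p = 0.0326). Since HAMP was listed with its HepG2 co-culture difference already known, these p-values describe that difference and give it no independent support. At an unadjusted p under 0.05 there were 7 of 51 in HepG2 co-culture, beside 12.55% of all genes, and 10 of 62 in Caco-2 co-culture, beside 10.46%. HAMP was at 0.63, 1.45 and 1.14 TPM in HepG2 mono-culture controls and at 84.9, 64.2 and 153 TPM in co-culture controls. With FFAs HAMP was at 0.61, 0 and 5.43 TPM in mono-culture and 15.4, 136 and 45.9 TPM in co-culture, so the gene, like ID1, was higher in every HepG2 co-culture library.

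The machinery upstream of the targets was detected in both lines. In HepG2 the averaged co-culture differences of the 5 SMAD transducers were all positive, with a median of 0.10, but without FFAs only 3 of the 5 were. Those of 15 receptors and co-receptors had a median of -0.04, and 8 of 9 intracellular regulators were positive (median 0.07). Those of 7 extracellular antagonists were all negative when averaged, with a median of -0.20, and with FFAs 6 of the 7 were. None of these genes passed the test. In Caco-2 the averaged differences of the 5 transducers were all positive too, with a median of 0.21. There 5 of 8 antagonists were positive, and none of these genes was called. BMP4, a ligand, averaged 132.8 to 164 TPM over the Caco-2 groups and 115 to 135.7 TPM over the HepG2 groups. BMP2, another ligand, averaged 16.9 to 21.7 TPM in Caco-2 and 0.14 to 0.293 TPM in HepG2, and BMP6, the main liver ligand for HAMP in the body, stayed under 1 TPM in both. Of the transducers, SMAD5 averaged 123.6 to 149.9 TPM in Caco-2 and 42.7 to 48.7 TPM in HepG2, while SMAD1 averaged 8.997 to 14.1 TPM and 21.7 to 25.7 TPM.

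The receptors BMPR1A (30.5 to 39.5 TPM in Caco-2, 24.2 to 26.9 TPM in HepG2) and BMPR2 (9.43 to 11.6 and 5.16 to 5.81 TPM) were measured in every group. Of the E proteins, the partners that ID proteins hold, TCF3 averaged 100.2 to 111 TPM in Caco-2 and 102.8 to 124.9 TPM in HepG2, whereas TCF4 averaged 40.2 to 51.8 TPM in Caco-2 and 0.22 to 0.467 TPM in HepG2. In the comparison of the lines 46 of 66 listed genes tested were called, 18 higher and 28 lower in HepG2, beside the 62.4% called among all genes. Of the 66, 15 passed the filter only in Caco-2 and 4 only in HepG2, so these entered the test through the line where they were high, and 28 of the 47 that passed in both lines were called, beside 59.3% of all genes that passed in both. Those with the smallest p were BMP7 (-6.87), MSX2 (-5.56), TFR2 (4.64), NEDD4L (3.28), TCF4 (-4.90), FST (8.64), BMP2 (-3.78) and TWSG1 (-2.26), as log2 differences of HepG2 from Caco-2, and BMP7, MSX2, TCF4 and BMP2 were among the genes that passed only in Caco-2. BMP7 and BMP2 are ligands, MSX2 a homeobox target, TFR2 the transferrin receptor that takes part in HAMP control, NEDD4L a ubiquitin ligase of the SMADs, FST (follistatin) an antagonist of activins and BMPs, and TWSG1 a modulator of BMP binding outside the cell.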

How the data were processed

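Messenger RNA was sequenced from 23 libraries, and the deposited values are TPM per gene, which the authors computed with RSEM 1.3.0 after removing ribosomal, transfer and mitochondrial RNA reads with Bowtie 2.1.0 and aligning the rest with STAR 2.7.1a (GRCh38, Ensembl 98). TPM keep no read depth, so no counting interval was given. Groups came from the labels. Genes were matched by the symbol in the gene identifier. The members and the gene lists were chosen with earlier results of these data known.

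Tests used limma 3.58.1 with a mean-variance trend on log2(TPM + 1), over the 4 groups of a line, keeping genes whose mean reached 1 TPM in some group, with Benjamini-Hochberg adjustment at 0.05 over all genes tested. The pseudocount makes fold changes of low genes smaller than they were. The lines were compared in a fit over all 8 groups. For co-cultured against mono-cultured HepG2 no p-value of a member is given, since that contrast chose them. Correlations were Pearson's r on log2(TPM + 1). Named beyond the members were the 5 genes most correlated with ID1 in each line, pathway genes called within a line and the 8 pathway genes with the smallest p between lines. TF, CDH17 and the pathway genes given as levels were chosen after their values were seen.

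Same-numbered libraries were checked for shared deviations from their group means. Every correlation was above 0.1 for HepG2 in mono-culture across FFAs (0.17 to 0.50), in controls across cultures (0.11 to 0.46) and in FFA groups across cultures (0.31 to 0.60), but not in HepG2 co-culture across FFAs (lowest 0.03) nor in any Caco-2 set, and the sources do not say what the number marks. Alternatives were another pseudocount, no filter or a filter in every group, quantile and median-of-ratios scaling, the compared groups alone, a replicate block and each library left out. Coordinates are from GENCODE 44 (GRCh38) and promoter sequences from RefSeq (GRCh38.p14), matched by symbol for 9 of 9 genes. The software was R 4.3.3, with tables handled in pandas 2.3.3 and numpy 2.4.6 (Python 3.11.15).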

Additional observations from a re-analysis of the deposited data

How the results depend on the processing

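TPM hide read depth, groups hold 2 or 3 libraries, and low genes such as SMAD6 rest on values near 2 TPM. The counts of members called and the medians of the HepG2 co-culture contrasts kept their direction under the alternatives run. These counts stayed within 1.5 times and these medians within the spread between libraries. The other medians and the counts without overlap were not run under the alternatives. Calls over all genes moved more. Averaged HepG2 co-culture had 8, against 1 without a filter, 16 with a filter in every group and 492 with the replicate block. The median HepG2 co-culture difference ran from 0.82 to 0.94 with single libraries left out and from 0.85 to 0.93 under other settings, of which the omission of all replicate 3 libraries was chosen after seeing the data. Signs turned for 6 tested differences, none of which had passed the test. They also turned for untested HepG2 co-culture differences with single libraries left out, SMAD6 with FFAs (-0.046 to 0.25) and SMAD9 without FFAs (-0.0078 to 0.15). SMAD6 in Caco-2 co-culture was at -0.0024 under quantile scaling, and BAMBI there was at -0.050 without the 2 libraries with HAMP above 1 TPM. With single libraries left out, BAMBI in Caco-2 co-culture ran from -0.078 to 0.15 (negative without replicate 2 with FFAs in either culture or co-culture control replicate 1), and SMAD6 there from -0.015 to 0.13 (negative without co-culture FFA replicate 2 or mono-culture control replicate 3). For averaged FFA differences the ranges were -0.33 to 0.0092 for BAMBI in HepG2 (positive without co-culture replicate 1 with FFAs), -0.094 to 0.36 for ID1 in HepG2 (negative without replicate 2 with FFAs of either culture), -0.028 to 0.12 for SMAD6 in HepG2 (negative without mono-culture FFA replicate 3) and -0.15 to 0.02 for SMAD7 in Caco-2 (positive without co-culture FFA replicate 1).

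Between lines the calls of ID1 and SMAD7 depended on the settings, and the cause was not tested. ID1 was called with the compared groups alone (limma adjusted p = 0.0177), with the replicate block (0.00837) and without HepG2 control replicate 2 (0.0307). SMAD7 was lost without a filter (0.0574), with the compared groups alone (0.0735) and without Caco-2 control replicate 1 (0.171), HepG2 control replicate 1 (0.089) or replicate 3 (0.139), and 5 to 7 of 7 genes were called with single libraries left out. Without all replicate 3 libraries 4 were called, with BAMBI at 0.0726 and SMAD7 at 0.115. The replicate block called 7 and changed no call of a member in the Caco-2 and FFA contrasts (members of the HepG2 co-culture contrasts have no call), while its calls over all genes were 492 against 8 in averaged HepG2 co-culture and 60 against 0 in averaged Caco-2 co-culture.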
